A study of Mus musculus with 6 samples.

Results

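The response to endoplasmic reticulum (ER) stress and its ATF4 arm was described here through 10 genes, Hspa5, Hsp90b1, Pdia4, Dnajb9, Sdf2l1, Herpud1, Atf4, Ddit3, Trib3 and Asns. They were chosen by symbol, 5 for protein folding in the ER, 1 for the removal of misfolded proteins and 4 for the ATF4 arm, and each of the 10 had a row among the 12397 rows of the deposited expression table to which a gene symbol could be assigned, out of 22700 rows in all. RNA of the middle small intestinal mucosa came from 6 C57BL/6 mice, with 1 library per mouse. In 3 of them (libraries K79S, K82S and K86S) exon 2 of Enpp7, the gene of intestinal alkaline sphingomyelinase (alk-SMase), had been removed with Cre-loxP (KO), and 3 (W83S, W89S and W90S) were wild type (WT). No further treatment is named, all mice were kept on commercial chow, and neither the driver of the Cre nor the age of the mice is given in the sources used here.

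Proteins that are secreted or placed in membranes fold in the ER with the help of chaperones. When unfolded proteins build up there, the sensors IRE1, ATF6 and PERK start the unfolded protein response. IRE1 splices the mRNA of Xbp1, and XBP1 and ATF6 raise the transcription of chaperones and of genes for ER-associated degradation. PERK phosphorylates eIF2alpha, which slows translation in general and favours translation of Atf4. ATF4 in turn drives genes of amino acid supply such as Asns, the regulator Ddit3 (CHOP) and the pseudokinase gene Trib3. Because ATF4 is controlled in large part by translation and XBP1 by splicing, the mRNA level of a gene, which is what was measured here, does not report the activity of either factor. The intestinal epithelium holds secretory cells, goblet and Paneth cells among them, in which this response is known to be prominent.

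Promoter stretches of 4 of the 10 genes are shown because they hold the short elements through which the response is known to act. RefSeq promoters (build GRCm38.p6, 250 bases before and 50 after the start) were found for 10 of 10 genes and were searched on both strands, and positions are counted from the RefSeq start, with -1 the last base before it. The ER stress element (ERSE; CCAAT, any 9 bases, CCACG) was found in Hspa5 from -65 to -47, and in Hsp90b1 from -212 to -194 and, on the other strand, from -107 to -89. It occurs in 39 of 32851 promoters (0.119%). ERSE-II (ATTGG, any base, CCACG) was found in Herpud1 from -52 to -42 and occurs in 12 promoters (0.0365%). The C/EBP-ATF composite element (TGATGNAA), known as a site of ATF4, was found in Asns from -23 to -16, on the other strand in Herpud1 from -112 to -105, and in Trib3 just after its start, from 15 to 22. It occurs in 1304 promoters (3.97%). The unfolded protein response element (TGACGTGG), in 222 promoters (0.676%), was in 0 of the 10. A match is a description of these letters only, and the data hold no measurement of binding. Capitals mark the matches in the sequences that follow, each written in the direction of its gene. For Hsp90b1 (-250 to -66) and Herpud1 (-162 to -1) stretches upstream of the outermost start in GENCODE M21 are shown. For Hspa5 and Asns, whose outermost GENCODE start lies further upstream than the match, only the match with 5 bases on each side is shown.
Hspa5, chr2:34772020-34772048, plus strand: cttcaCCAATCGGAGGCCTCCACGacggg
Hsp90b1, chr10:86705510-86705694, minus strand: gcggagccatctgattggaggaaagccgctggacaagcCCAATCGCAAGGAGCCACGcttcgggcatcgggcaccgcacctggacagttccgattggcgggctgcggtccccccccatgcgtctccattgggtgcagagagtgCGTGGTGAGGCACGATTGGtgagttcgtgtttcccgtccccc
Herpud1, chr8:94386267-94386428, plus strand: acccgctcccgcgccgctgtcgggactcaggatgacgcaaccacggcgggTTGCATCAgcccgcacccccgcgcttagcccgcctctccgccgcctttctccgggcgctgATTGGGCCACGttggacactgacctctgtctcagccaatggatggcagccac
Asns, chr6:7693220-7693237, minus strand: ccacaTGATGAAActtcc

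In the GENCODE M21 annotation of GRCm38 (mm10) all 10 are protein-coding genes. Hspa5 spans chr2:34771970-34777547 on the plus strand, Hsp90b1 chr10:86690209-86705509 on the minus strand and Pdia4 chr6:47796141-47813430 on the minus strand. Dnajb9 lies at chr12:44205559-44210326 and Sdf2l1 at chr16:17130138-17132383, both on the minus strand. Herpud1 lies at chr8:94386438-94395377, Atf4 at chr15:80255184-80257541 and Ddit3 at chr10:127290774-127296288, each on the plus strand. Trib3 is at chr2:152337422-152344032 and Asns at chr6:7675169-7693254, both on the minus strand. Since the handling of strand is not stated, reads of a gene cannot be told apart from those of genes that overlap it. This touches Hsp90b1 most, whose span shares 4598 bases with the antisense pseudogene 1810014B01Rik. Herpud1 shares 535 bases with the antisense gene Gm15890, and Ddit3 shares 68 bases with Mars on the opposite strand. Ddit3 has a second overlapping model of the same symbol in the annotation, with 2925 shared bases, whose identifier is not among those of the table.

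The values are FPKM, fragments per length of transcript and depth of library, which can be compared between genes as levels per length, while the reads behind each value are unknown. Sums of the column of each library ran from 393152 to 465901 in KO and from 473383 to 495362 in WT. Enpp7 stood at 605 (K79S), 129 (K82S) and 670 FPKM (K86S) in KO and at 406 (W83S), 667 (W89S) and 495 (W90S) in WT. Of the KO libraries K82S alone lay under the WT values, and such a gene-level value cannot tell whether exon 2 is missing. All 10 enterocyte markers, led by Apoa1 and Fabp2, were present, with a summed level of 25997 (K82S) to 41368 FPKM in KO and 34348 to 38240 in WT. Markers of other cells differed by library. Of 11 gastric markers 7 had a row, led by Tff1 and Pgc, and they summed to 39458 FPKM in W83S and to 0 to 5.74 in the other 5 libraries, with Tff1 listed at 0 in 3 of these. The 3 of 12 pancreatic acinar markers with a row, led by Pla2g1b and Amy2a5, summed to 2331 in W83S and 0 to 2.02 elsewhere, but Pla2g1b alone gave 2309 of the 2331, with Amy2a5 at 20.1 and Ctrb1 at 2.11. The summed plasma cell markers (6 of 9 with a row, led by Igkc and Igha) were highest in K82S, at 4228 FPKM against 1869 to 3442 in the other KO libraries and 1997 to 2338 in WT. Igkc alone gave 3135 of the 4228. Igha was highest in K86S (1041, against 850 in K82S), and the other markers of this list with a row were highest in K82S. The summed goblet cell markers (7 of 7, led by Tff3 and Zg16) were highest in K82S (13564) and W89S (13332), with 7027 to 8587 in the other 4 libraries. Single markers of this list went other ways, as Muc2 was lowest in W89S (7.03 FPKM, against 68.3 to 160 elsewhere) and Fcgbp highest in K79S (894). Paneth cell markers (7 of 7, led by Defa24 and Defa30) summed to 776 (K79S), 5428 (K82S) and 1492 (K86S) in KO and to 3040 (W83S), 10670 (W89S) and 8267 (W90S) in WT. The 3 of 6 smooth muscle markers with a row, led by Acta2 and Tagln, summed to 13.4 to 29.1 in KO and 10.6 to 33.6 in WT. The part of these cell types in the results was not tested. In bulk RNA, fewer cells of a type and less RNA per cell cannot be told apart.

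All 10 genes were expressed in every library, over a wide range of levels. Over the 6 libraries the mean was highest for Hspa5, at 124 ± 28.3 FPKM (SD, n = 6), followed by Hsp90b1 at 111 ± 23.8, Herpud1 at 77.2 ± 29.7 and Atf4 at 75.8 ± 14.9. Sdf2l1 (39.3 ± 7.45) and Pdia4 (37.7 ± 7.76) came next, and Dnajb9 (17.6 ± 4.22), Trib3 (14.1 ± 3.62), Ddit3 (13.3 ± 2.65) and Asns (6.27 ± 2.99) were the lowest. Of the neighbours in this order, 2 pairs had ranges that did not overlap, Atf4 with Sdf2l1 (lowest Atf4 58.8, highest Sdf2l1 52.5) and Pdia4 with Dnajb9 (lowest Pdia4 29.9, highest Dnajb9 24.0). The other neighbours overlapped, and so did Herpud1, whose lowest value was 44.6 FPKM in K82S, with Sdf2l1 and Pdia4.

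**Figure D1:**
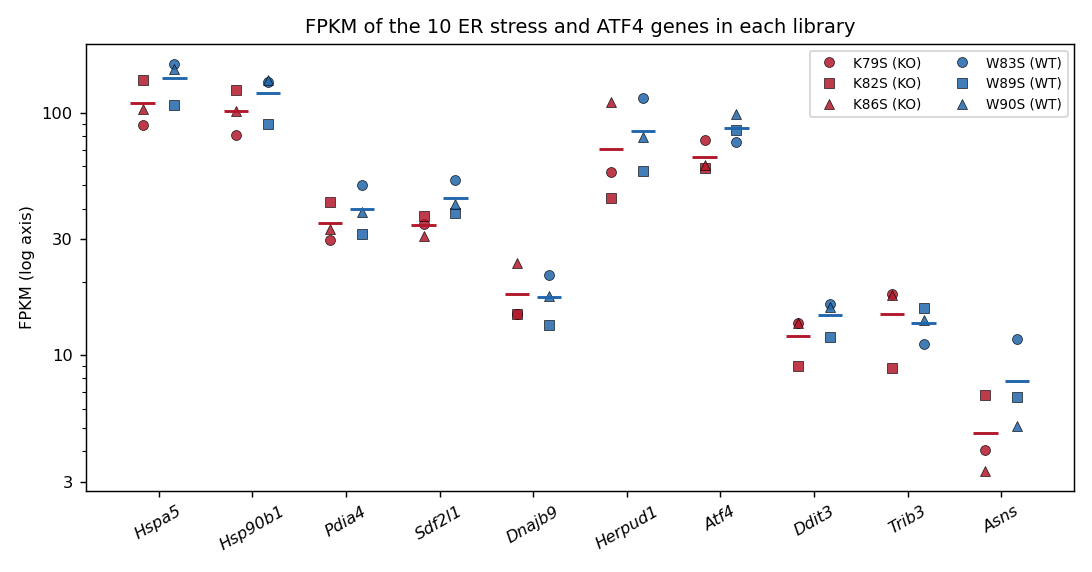
FPKM (log axis) of each of the 10 genes in each library, with KO in red on the left and WT in blue on the right of each gene. Symbols mark the libraries and bars the mean of 3. Sdf2l1 is the gene whose 3 KO values (30.9 to 37.3) all lie under its 3 WT values (38.4 to 52.5), and the other 9 overlap.

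The chaperones of the ER lumen did not pass the test between KO and WT. Hspa5 encodes BiP (GRP78), the HSP70 chaperone of the ER that also holds the sensors inactive. In the KO libraries it stood at 88.6 (K79S), 136 (K82S) and 104 FPKM (K86S), and in the WT libraries at 158 (W83S), 107 (W89S) and 151 (W90S). K82S lay among the WT values and W89S among the KO values, so the groups overlapped. Means were 109 ± 24.1 FPKM in KO and 139 ± 27.7 in WT (SD, n = 3 each). The log2 fold change, here always KO minus WT of log2(FPKM + 1), was -0.34 (SE 0.24, 95% interval -0.92 to 0.23), with an adjusted p of 0.554 by limma and p = 0.2 by the exact two-sided permutation test. Leaving out 1 library at a time gave -0.52 (without W89S) to -0.20 (without K79S). The smallest p that 3 against 3 can give in that test is 0.1.

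Hsp90b1 encodes GRP94, the HSP90 chaperone of the ER. It was listed at 80.6, 124 and 101 FPKM in KO and at 134, 89.6 and 137 in WT, with the libraries in the order given above. The order followed that of Hspa5 in its split, with K82S on the side of W83S and W90S, and W89S on the side of K79S and K86S. The difference between groups was -0.23 on the log2 scale (SE 0.25, interval -0.83 to 0.36; limma adjusted p = 0.706, exact permutation p = 0.5). It ranged from -0.43 without W89S to -0.08 without K79S. Pdia4 (ERp72), a protein disulfide isomerase that forms and rearranges disulfide bonds, was at 29.9, 42.6 and 32.9 FPKM in KO and 50.1, 31.5 and 38.9 in WT. Here too the 3 highest libraries were W83S, K82S and W90S, and the groups overlapped. Its log2 fold change was -0.18 (SE 0.23, interval -0.72 to 0.36; limma adjusted p = 0.759, exact permutation p = 0.6), and ranged from -0.34 without W89S to -0.01 without W83S.

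Sdf2l1, which works with BiP and the J-domain chaperone Dnajb11 to keep proteins from aggregating, was the single gene of the 10 whose groups did not overlap. The values were 34.6, 37.3 and 30.9 FPKM in KO and 52.5, 38.4 and 42.1 in WT, with means of 34.3 ± 3.19 and 44.3 ± 7.29. The highest KO library, K82S, was close under the lowest WT library, W89S. All 3 KO libraries were under all 3 WT libraries in 1483 of 13089 rows tested (11.3%), so 1 of 10 genes is near the background. On the log2 scale KO minus WT was -0.35 (SE 0.17, interval -0.77 to 0.06; limma adjusted p = 0.418), and the exact permutation p of 0.1 was the smallest possible. Without W83S the difference was -0.23.

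Dnajb9 (ERdj4) is a J-domain co-chaperone of BiP that represses IRE1 and takes part in degradation. It was at 14.8, 14.8 and 24.0 FPKM in KO and at 21.3, 13.3 and 17.4 in WT. K86S was the highest library and W89S the lowest, and the means of 17.9 ± 5.33 and 17.4 ± 4.01 were close. KO minus WT was 0.03 on the log2 scale, and its interval of -0.58 to 0.64 allows a change either way (SE 0.25; limma adjusted p = 0.970, exact permutation p = 1.0). Herpud1, a membrane protein of the ER that organises the HRD1 complex of ER-associated degradation, had the widest spread of the 10 between mice of 1 genotype. It was listed at 56.7, 44.6 and 111 FPKM in KO and at 115, 57.5 and 78.99 in WT. K86S and W83S stood high and K82S low, and each group spanned much of the range of the other. Its log2 fold change was -0.30 (SE 0.40, interval -1.25 to 0.66; limma adjusted p = 0.771, exact permutation p = 0.5). Without K82S it was -0.02, and without W83S it was -0.04.

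In the ATF4 arm, 3 of 4 genes had a lower mean in KO, and none passed the test. Atf4, the transcription factor itself, was at 77.1, 58.8 and 60.7 FPKM in KO and at 75.3, 84.7 and 98.4 in WT. K79S was above the lowest WT library by a small margin, and the other KO libraries were under all 3 WT libraries. Means were 65.5 ± 10.1 and 86.1 ± 11.6 FPKM, with a log2 fold change of -0.39 (SE 0.19, interval -0.84 to 0.06; exact permutation p = 0.2). The adjusted p of 0.410 by limma was the lowest of the 10 genes. Ddit3, which encodes the pro-apoptotic factor CHOP, was at 13.5, 8.97 and 13.5 FPKM in KO and at 16.1, 11.9 and 15.8 in WT. K82S was the lowest library, and W89S lay under K79S and K86S. The log2 fold change was -0.28 (SE 0.21, interval -0.77 to 0.22; limma adjusted p = 0.583, exact permutation p = 0.3) and was -0.10 without K82S.

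Trib3, a pseudokinase induced by ATF4 and CHOP that dampens ATF4 activity, was at 17.8, 8.79 and 17.6 FPKM in KO and at 11.1, 15.6 and 13.9 in WT. K79S and K86S were the highest libraries and K82S the lowest, so that the KO group enclosed the WT group. The log2 fold change was 0.07 (SE 0.29, interval -0.62 to 0.75; limma adjusted p = 0.936, exact permutation p = 0.8), became 0.38 without K82S and -0.06 without W83S, and passed the test in neither case. Asns, the synthetase that makes asparagine from aspartate, had the most negative fold change of the 10 genes. It was at 4.05, 6.84 and 3.33 FPKM in KO and at 11.7, 6.67 and 5.08 in WT. W83S was the highest library, at 3.51 times K86S, the lowest, and K82S lay above W89S and W90S. The log2 fold change was -0.60 (SE 0.33, interval -1.39 to 0.20; limma adjusted p = 0.458, exact permutation p = 0.3). It was -0.84 without K82S (adjusted p = 0.174) and -0.30 without W83S (adjusted p = 0.786).

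**Figure D2:**
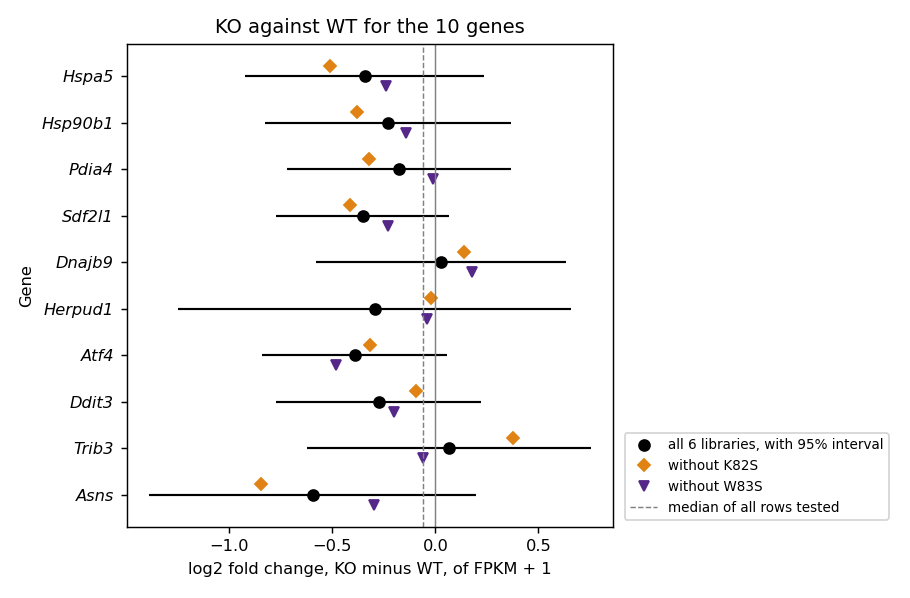
Log2 fold change, KO minus WT, of FPKM + 1 for each gene, with its 95% interval by limma (black), and the value without K82S (orange) or without W83S (purple). The dashed line marks the median of all rows tested, -0.06. Each of the 10 intervals spans 0.

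Across the 10 genes, 0 passed the threshold of an adjusted p under 0.05 with a fold change above 1.5 or below 2/3, and 0 had an unadjusted p under 0.05 by limma. The same fit called 1 of 13089 rows (0.00764%) and gave 1638 rows an unadjusted p under 0.05. All 10 genes passed the filter on low values. Of the 10 log2 fold changes 8 were negative and 2 positive, with a median of -0.29 against -0.06 over all rows tested. Without W83S the medians were -0.17 and -0.07, and without K82S they were -0.32 and -0.09. When the libraries were rescaled to equal sums, the median of all rows moved to 0.09 and that of the 10 genes to -0.11, with 7 negative and 3 positive, so relative to all rows the 10 genes were 0.22 lower as deposited and 0.20 lower after rescaling. For 0 of the 10 genes was every KO value higher than every WT value, a pattern seen in 5.9% of rows. The intervals of the 10 genes reach from -1.39 to 0.75. On the lower side 9 of them extend past the fold threshold, and on the upper side 3.

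Leaving out K82S raised the calls across the table. Without K82S, 1133 of 12764 rows (8.88%) were called lower in KO and 51 (0.4%) higher, and 0 of the 10 genes were called. For so few genes 0 is near these shares and shows no difference from all rows. The adjusted p values of the 10 by limma then ran from 0.174 for Asns to 0.980 for Herpud1. Without both K82S and W83S, 1069 of 12510 rows (8.55%) were called lower, again with 0 of the 10 genes. Of the 7 Paneth cell markers, 1 was called lower without K82S and 7 without both, and a link to the other calls was not tested. The spread of the 10 genes between mice of 1 genotype ran from 0.19 (Sdf2l1) and 0.20 (Atf4) to 0.50 (Asns) and 0.59 (Herpud1) as SD of log2(FPKM + 1), and was above the median over all rows tested, 0.24, for 8 of the 10.

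Within the 10 genes there were small groups that shared their high libraries. Hspa5, Hsp90b1 and Pdia4 were each highest in W83S, W90S and K82S. Trib3 had the opposite split, with K79S, K86S and W89S as its 3 highest libraries. Herpud1 and Dnajb9 shared W83S, K86S and W90S. The 2 genes with an ERSE in the sequences above, Hspa5 and Hsp90b1, are thus in 1 group together with Pdia4, which has no match to it in its promoter window. These groupings rest on 6 libraries and are a description. W83S, the library with gastric markers, was the highest library for 6 of the 10 genes and the lowest for 0. K82S, with the highest summed plasma and goblet cell markers and the lowest summed enterocyte markers, was the lowest for 4 and the highest for 0. The shares of all rows with these extremes were not counted, and a link to the markers was not tested.

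**Figure D3:**
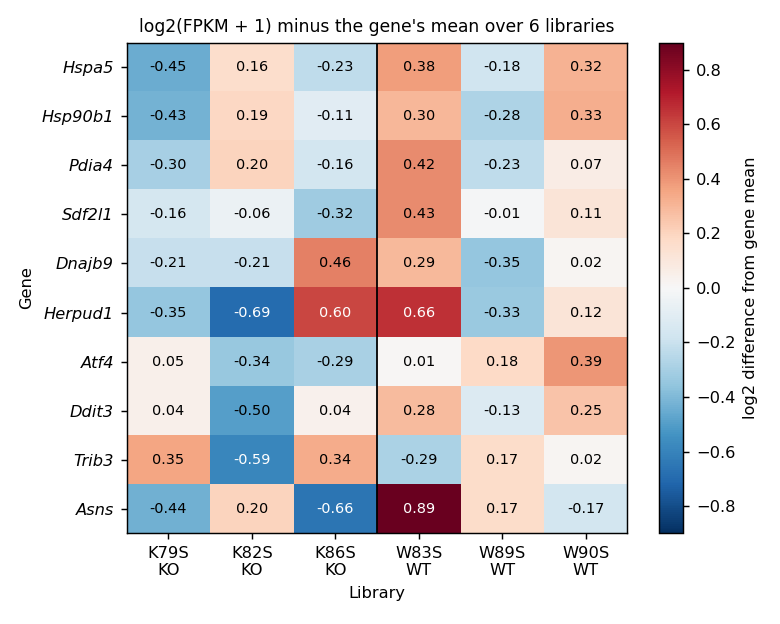
Log2(FPKM + 1) of each gene in each library after subtraction of the gene's mean over the 6 libraries, with red above and blue below the mean. Hspa5, Hsp90b1 and Pdia4 share 1 pattern, with K82S above and W89S below their mean, Herpud1 and Dnajb9 are high in K86S and W83S, and Asns is highest in W83S.

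The genes with the most similar profiles were sought among 6800 genes with a mean of at least 5 FPKM, by Pearson's r of log2(FPKM + 1) over the 6 libraries, which share their depth and mucosal makeup among all genes. With 6 points and this many genes the values are given as a description only. Those nearest to Hsp90b1 were Spcs2, a subunit of the signal peptidase of the ER (r = 0.990), M6pr (0.986) and 2310030G06Rik (0.981). Nearest to Hspa5 were Ssb (0.983), Ociad1 (0.980) and Hax1 (0.976), and nearest to Pdia4 were Timm29 (0.992), Ubxn4 (0.985) and Tmx2, a thioredoxin-related protein of the ER membrane (0.965). Ugdh was among the 3 nearest genes of both Herpud1 (0.976) and Dnajb9 (0.964), the others being AK157302 and Ugt2b5 for Herpud1 and Ndel1 and Nudt9 for Dnajb9. Sdf2l1 was followed by D10Jhu81e, Ninj1 and Carhsp1, with r of 0.991, 0.980 and 0.9751. In the ATF4 arm, the nearest genes were Mrpl43 (0.999), Ddt and Sap30 for Atf4, Dynll2 (0.991), Mtfp1 and Ndufa8 for Ddit3, Cyp4b1 (0.993), Lpar3 and Kdm6b for Trib3, and Pygb (0.994), Tst and Mpv17l2 for Asns. For the mean profile of the 10 genes the nearest was Fth1, the ferritin heavy chain (0.998), followed by Gm6368, Car9, Got2, Pfkl, Poldip2, Dnajc4 and Gsta4 (0.976). Fth1 was at 1324, 1370 and 1673 FPKM in KO and at 2942, 1584 and 2204 in WT, with W83S highest.

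Other genes of the ER and ATF4 responses were taken from 6 lists with 128 genes, of which 108 had a row and 107 passed the filter. Among these 107, 0 were called with all 6 libraries, and 14 had an unadjusted p under 0.05 by limma, against 1638 of 13089 rows tested. Of their log2 fold changes 78 were negative and 29 positive, with a median of -0.13. All KO libraries were under all WT libraries for 13 (12.1%, against 11.3% of all rows) and above them for 7 (6.54%, against 5.9%). Without K82S, 11 were called lower and 1 higher, 12 of 107 in all (11.2%), near the background of 8.88% lower and 0.4% higher. Of these 12, Ssr4 and Sec11c of the translocation list, Phgdh and Slc7a5 of the amino acid list and the tRNA synthetase gene Lars were lower in KO, and the others are named with their lists. The sensors and their first signals (18 of 20 with a row) stood at a median of 0.02. In all KO libraries 0 of these genes were under the WT libraries, against 11.3% of all rows. Above them were 3 (16.7%, against 5.9% of all rows), Atf6, Eif2ak1 and Ppp1r15b. Ppp1r15b, which directs dephosphorylation of eIF2alpha, was at 48.2 ± 4.38 FPKM in KO and 39.2 ± 1.04 in WT (log2 fold change 0.29, SE 0.14; limma adjusted p = 0.418). Xbp1 was at 45.5 ± 0.907 and 46.1 ± 7.31 FPKM, with a log2 fold change of -0.01 (SE 0.17), and gene values cannot show its splicing. Creb3l3, an ER-bound factor of the enterocyte, was at 213 ± 91.3 and 189 ± 20.4 FPKM, and Creb3l1 at 8.43 ± 2.49 and 11.0 ± 3.66.

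The remaining folding genes of the ER (24 of 26 with a row) had a median of -0.16. Those with the highest levels were P4hb, a protein disulfide isomerase (832 ± 275 FPKM in KO, 842 ± 247 in WT), the lectin chaperone Calr (242 ± 20.2 and 221 ± 22.2) and the glycoprotein disulfide isomerase Pdia3 (111 ± 18.2 and 106 ± 18.6), and their log2 fold changes were between -0.03 and 0.14. The largest difference was that of Prdx4, the peroxiredoxin of the ER, at 2.07, 4.41 and 2.46 FPKM in KO and 7.17, 5.88 and 7.16 in WT. Its groups did not overlap, and the log2 fold change of -0.998 (SE 0.23) had an adjusted p of 0.393 by limma with all libraries and 0.0319 without K82S. Leaving out K82S also brought Pdia6, Dnajc10, Fkbp11 and Ppib past the threshold, each lower in KO, so 5 of 24 (20.8%) were called lower against 8.88% of all rows. K82S was the KO library with the highest summed Paneth cell markers (5428 FPKM), inside the WT range of 3040 to 10670. Without it the KO sums were 776 and 1492, and a link of these calls to the markers was not tested. Genes of degradation and translocation (30 of 30 with a row, 29 passing the filter) had a median of -0.08, with 3 genes (10.3%) lower and 3 (10.3%) higher in all KO libraries, against 11.3% and 5.9% of all rows. Os9 (122 ± 21.1 and 111 ± 17.3 FPKM), Ssr2 (75.7 ± 19.3 and 78.7 ± 17.6) and Sec61b (38.9 ± 11.8 and 45.3 ± 2.75) were the most abundant, and the ubiquitin-conjugating enzyme gene Ube2g2 (6.36 ± 1.21 and 10.7 ± 3.47) had the largest difference, -0.64 (SE 0.24; limma adjusted p = 0.393).

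Around ATF4, regulators and amino acid genes were less complete, and those without an assigned row were not analysed here. Of 16 regulators 11 had a row, with a median of -0.03. Cebpb (40.0 ± 15.6 and 38.9 ± 6.86 FPKM), Atf3 (27.4 ± 10.9 and 29.8 ± 24.9) and Ddit4 (12.8 ± 4.85 and 14.7 ± 3.16) were the most abundant. Nupr1, a stress-induced chromatin protein, was at 1.90, 5.91 and 1.77 FPKM in KO and 12.1, 8.996 and 5.52 in WT, where K82S was above W90S (log2 fold change -1.31, SE 0.42; limma adjusted p = 0.393, and 0.0333 without K82S). Of 24 genes of amino acid synthesis and transport 13 had a row. Their median was -0.45, with 12 of 13 negative and 3 (23.1%, against 11.3% of all rows) lower in all KO libraries. No row with a gene was under 0.954 FPKM in W83S, a WT library, which among low genes favours those high in it. Low genes of this list include Psat1 (1.05 FPKM in W83S), Phgdh (1.16) and Slc7a5 (2.11). All rows tested include unnamed rows without this limit, so the 2 shares are not fully alike. Slc3a2 (142 ± 59.9 and 120 ± 22.4 FPKM), Cth (19.9 ± 3.05 and 21.6 ± 4.16) and Aldh18a1 (13.8 ± 2.67 and 19.7 ± 5.80) were the most abundant, and Gpt2, with the largest difference of -0.84 (SE 0.57; limma adjusted p = 0.537), was at 7.30 FPKM in W83S and 0.444 to 1.27 elsewhere. Among 12 aminoacyl-tRNA synthetases, 5 (41.7%) were lower and 1 (8.33%) higher in all KO libraries, against 11.3% and 5.9% of all rows, with a median of -0.28. Such shares were counted on the values as deposited, where every KO column sum lay under every WT sum. They were not counted after rescaling to equal sums. Sars was at 12.7, 12.4 and 12.5 FPKM in KO and 17.9, 17.4 and 17.3 in WT, a log2 fold change of -0.45 (SE 0.12; limma adjusted p = 0.393). Wars, which is known also as a target of interferon, ran the other way, at 21.5, 14.0 and 18.6 FPKM in KO and 10.8, 11.6 and 9.40 in WT (0.70, SE 0.19; limma adjusted p = 0.393, and 0.0333 without K82S). Nars (70.7 ± 11.9 and 84.6 ± 7.19 FPKM) and Gars (15.8 ± 2.97 and 19.0 ± 1.37) were the most abundant of this list with Sars.

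**Figure D4:**
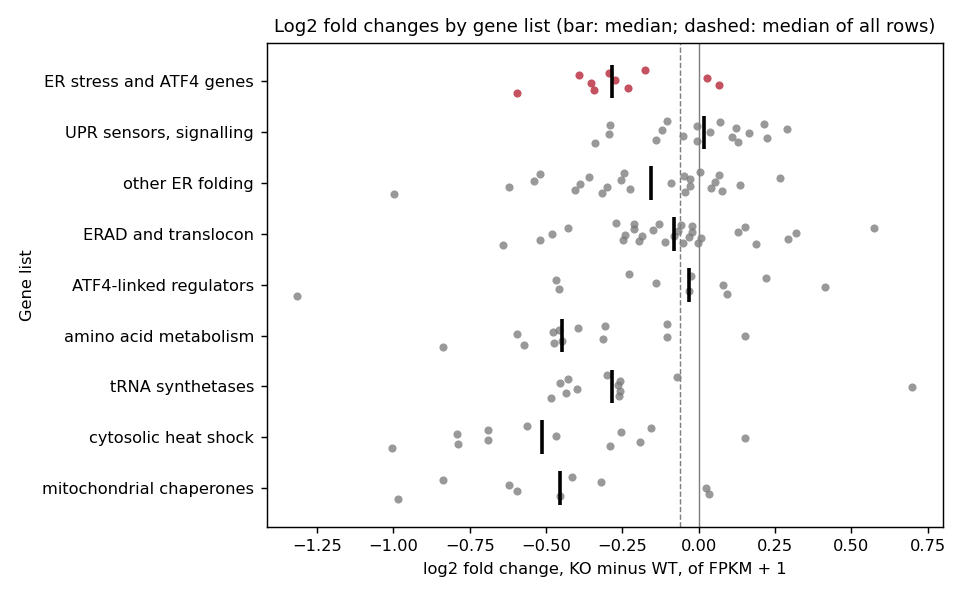
Log2 fold change, KO minus WT, of FPKM + 1, with 1 point per gene that passed the filter, for the 10 genes (red), 6 other lists of the ER and ATF4 responses and the cytosolic and mitochondrial chaperone lists (grey). Black bars mark the list medians and the dashed line the median of all rows tested, -0.06. The medians reach from 0.02 for the sensors to -0.52 for the cytosolic heat shock genes.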

How the data were processed

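Mucosal RNA of 3 KO and 3 WT mice was sequenced by the study as short single-end reads on an Illumina HiSeq. After adapter trimming (trim-galore), the authors used HISAT2 for mapping to mm10 and StringTie for assembly and quantification. The deposited table gives FPKM per gene and library, which the authors scaled by gene length and mapped reads. Tool versions, gene annotation and strand setting are not given in the sources used here. Genotypes were taken from the sample labels, and 0 columns could not be mapped to a sample. FPKM holds no read counts, so the count model of edgeR, which the authors used, was not run, no counting interval can be given, and the spread among the 3 mice of a genotype sets the precision.

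In the deposited table gene identifiers stand beside the values of other genes. Identifiers were ranked by the K79S value beside them and rows by W83S, and each identifier was placed on the row of matching rank, with small fixed offsets along 12 bands of ranks taken from earlier work on these data. Outside these bands 10298 rows were left without an identifier and stayed in the fit unnamed. The lowest W83S value of a row with an identifier was 0.954 FPKM, so genes below it in W83S, and those in gaps between bands, were not analysed here. As W83S is a WT library, this limit favours, among low genes of any list, those that are high in it. As a check, values with at most 6 decimals, the mark of a gene with 1 transcript, were found in 99.7% of 3649 single-transcript genes of GENCODE M21 and in 5.80% of 8748 genes with several. Of the 10 genes 9 had the decimals of their transcript number, and Pdia4 did not, with 2 transcripts.

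A row was kept where at least 2 libraries had 1 FPKM or more, which left 13089 rows. log2(FPKM + 1) was fitted with limma 3.58.1 (lmFit, eBayes with trend; R 4.3.3), without covariates, and p-values were adjusted by Benjamini-Hochberg over all rows tested. A call needed an adjusted p under 0.05 together with a change of more than 1.5 times in either direction. A fold on this scale understates the change of low genes. Single genes were also tested with the exact two-sided permutation test (scipy 1.17.1). Other steps used numpy 2.4.6 and pandas 2.3.3 in Python 3.11.15. The scripts were tested on simulated data.

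The 10 genes, the gene lists and the marker lists were chosen with earlier results of these data known. Of each other list the text names the 3 genes with the highest mean FPKM and the gene with the largest absolute fold change, of each marker list the 2 with the highest mean, and the nearest genes by Pearson's r (3 per gene, 8 for the mean profile). Prdx4, Nupr1, Sars and Wars are given per library, and genes called without K82S are named besides, as chosen after their values were seen. Alternatives were another pseudocount (0.1 or 0.01), no filter or one on the mean, rescaling to equal sums, centring on the median, array weights, leaving out each library, and leaving out K82S and W83S together. Promoter sequences are from RefSeq (GRCm38.p6).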

Additional observations from a re-analysis of the deposited data

How the results depend on the processing

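Of the 10 genes, 0 were called under any alternative. No paired analysis was possible because, although the study describes its mice as matched pairs, the labels give no number shared by KO and WT mice, and the unpaired fit leaves any matching out. Over all rows tested 1 was called, against 0 with a pseudocount of 0.1 (1636 unadjusted p under 0.05) or 0.01 (1619), 2 with array weights, 0 to 1184 when 1 library was left out (1184 without K82S) and 1111 without K82S and W83S. For the 128 other genes of all 8 lists, heat shock and mitochondrial genes included, with 0 called, the count was 0 to 13 when 1 library was left out (13 without K82S) and 8 without both. Of these 128, 21 had an unadjusted p under 0.05 by limma as deposited and 11 after rescaling to equal sums. Over all 13089 rows tested the counts were 1638 and 1650. The median log2 fold change of the 10 genes, -0.29, ranged from -0.42 (without W89S) to -0.17 (without W83S) over single libraries left out and was -0.11 after rescaling to equal sums. The sign turned for Pdia4 (0.0026 after rescaling), Herpud1 (0.23 without both K82S and W83S, -0.67 to -0.02 over single libraries), Trib3 (-0.094 to 0.38 over single libraries, negative without K79S, K86S or W83S) and Dnajb9 (-0.19 to 0.18, negative without K86S or W89S). None of these values passed the test, and the cause was not tested. With 3 mice per genotype and no record of reads, a small change in any of the 10 genes was not detectable here. Larger changes can be missed as well, since the interval of each of the 10 extends past the 1.5-fold threshold on at least 1 side. Prdx4, at a log2 fold change of -0.998, was likewise not called with all libraries (limma adjusted p = 0.393).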

Other observations

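Beyond the ER, 12 cytosolic heat shock genes and 9 mitochondrial chaperones and proteases were described in the same way, and 0 of either list were called by limma with all 6 libraries. By limma 1 of the 12 and 6 of the 9 had an unadjusted p under 0.05, against 1638 of 13089 rows tested. The heat shock list had a median log2 fold change of -0.52, which became -0.19 without W83S. Summed over the list, W83S stood at 778 FPKM against 230 to 389 in the other 5 libraries, and W83S was the highest library for 10 of the 12 genes. Hspa1b, an inducible HSP70 gene, was at 4.44, 4.72 and 17.9 FPKM in KO and at 101, 4.58 and 4.33 in WT. Its near-identical copy Hspa1a was at 83.6 FPKM in W83S, and how reads were split between both copies is uncertain. Hsph1 was at 1.41, 2.18 and 6.13 FPKM in KO and 17.9, 3.09 and 4.72 in WT. Hsp90ab1, a constitutive HSP90 gene, was at 110 ± 22.2 FPKM in KO and 181 ± 61.9 in WT (SD, n = 3 each), and Hspa8 at 90.2 ± 26.9 and 134 ± 40.7. W83S, the library with gastric markers, thus carried the highest cytosolic heat shock values as well as the highest Hspa5, Pdia4, Sdf2l1, Herpud1, Ddit3 and Asns.

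The mitochondrial list had a median of -0.45, and of -0.46 without W83S, and 5 of its 9 genes (55.6%) had all KO libraries under all WT libraries, against 11.3% of all rows tested. The column sums of all KO libraries also lay under those of all WT libraries, and this share was not counted after rescaling to equal sums. Hspe1, the mitochondrial HSP10, was at 9.03, 18.3 and 18.1 FPKM in KO and at 33.4, 23.4 and 33.2 in WT, with a log2 fold change of -0.99 (SE 0.30) and an adjusted p of 0.393 by limma. Its partner Hspd1 was at 11.8, 22.8 and 21.1 FPKM in KO and 38.2, 23.8 and 38.6 in WT, a log2 fold change of -0.84 (SE 0.31; limma adjusted p = 0.393). Hspa9 was at 25.6 ± 5.33 and 39.9 ± 8.59 FPKM and Afg3l2 at 47.1 ± 2.73 and 46.1 ± 4.41. Without K82S, 1 of the 9, the protease gene Lonp1, was called, at 11.3, 13.3 and 12.1 FPKM in KO and 19.2, 17.4 and 20.1 in WT (limma adjusted p = 0.040), against 8.88% of rows called lower.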
